A study of Sus scrofa with 32 samples.

Results

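The 32 genes described here carry the TGF-beta and BMP signals: 12 belong to the TGF-beta branch, 18 to the BMP branch, and SMAD4 and SMAD7 serve both. They were named by symbol, and all 32 were found among the 19550 protein-coding genes on placed chromosomes of the pig build Sscrofa11.1. The study profiled histone marks by CUT&Tag, in which a transposase tethered to an antibody cuts and tags the DNA beside a modified histone. Per the labels the cells are porcine satellite cells, which in muscle serve as its stem cells. Each of 3 marks had 8 libraries, 2 in each of 4 groups. The CBP cells at 60 h were differentiating cells given SGC-CBP30 for 60 h. The WT cells at 60 h were differentiating cells with no inhibitor named. The CBP cells at 0 h were proliferating cells given SGC-CBP30 for 48 h, and the WT cells at 0 h were proliferating cells with no inhibitor named. SGC-CBP30 is a small molecule that binds the bromodomains of CBP and p300, the main enzymes that acetylate lysine 27 of histone H3. The dose reads 5 uM/ml, a unit that the labels leave unexplained, and no vehicle is named. The treatment text is the same for every sample, so that WT cells went without the inhibitor rests on the sample names. The labels also name a C3H cell line and RPMI medium beside the pig satellite cells, and their treatment field says proliferation for the 60 h samples too, so stage was read from the sample titles.

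Ligands of the TGF-beta family bind pairs of type II and type I receptor kinases, which phosphorylate receptor SMAD proteins. TGF-beta and activin receptors act on SMAD2 and SMAD3, BMP receptors act on SMAD1, SMAD5 and SMAD9, and both groups enter the nucleus with SMAD4. SMAD6 and SMAD7 block the receptors, most LTBP proteins hold TGF-beta in the matrix, and noggin, chordin and gremlin trap BMP ligands outside the cell. In cultured mouse myoblasts TGF-beta restrains differentiation, and BMP signals keep muscle precursors dividing.

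The measurement is a length: the base pairs (bp) under the deposited peaks of a library within a gene's span extended by 5 kb on either side. H3K4me3 marks active promoters, H3K27ac marks active promoters and enhancers, and H3K27me3 marks genes held silent by Polycomb complexes. A shorter length can stand for fewer cells with the mark or for a weaker mark per cell, and these cannot be told apart. Read depth is unknown, and nothing states that the 2 libraries of a group came from separate cultures, so errors and p values measure the spread between libraries, which may be technical. Log2 changes are of bp plus 500, with their standard error (SE), from a limma fit over all genes of a mark with n = 2 libraries per group, and a gene is called at a Benjamini-Hochberg adjusted p below 0.05. The CBP against WT and the 60 h against 0 h comparisons share their WT libraries. Over all genes tested, the median log2 change of H3K4me3 was 0.04 for CBP against WT at 60 h, -0.19 at 0 h and 0.18 for 60 h against 0 h in WT cells. For H3K27ac those medians were -0.72, -0.46 and 0.69, and for H3K27me3 0.33, 2.18 and 0.58. For the difference between the inhibitor effects at 60 h and 0 h, the medians were 0.24 in H3K4me3, -0.16 in H3K27ac and -1.81 in H3K27me3. Fitted changes are therefore also given relative to the median of their comparison.

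Satellite cell and myoblast markers carried H3K4me3, with base in both libraries at 7 of 7 genes in the 60 h groups, 5 of 7 in CBP cells at 0 h and 6 of 7 in WT cells at 0 h. Of 5 measured markers of differentiated muscle, including MYOG and ACTA1, 5 carried H3K4me3 in CBP cells at 60 h and in WT cells at 60 h, and 0 in either group at 0 h. Their summed length was 12095 to 12897 bp in CBP cells at 60 h, against 20263 to 20387 bp in WT cells at 60 h. The fibroblast genes PDGFRA, THY1, COL1A1 and COL3A1 of a list of 6 also carried H3K4me3 in every group, LUM was at 0 in every group, and the endothelial genes PECAM1, CDH5, KDR and TEK were at 0 in every H3K4me3 library. In H3K27ac those 4 summed to 334 to 696 bp in CBP cells at 60 h, 380 to 853 bp in WT cells at 60 h, 0 bp in CBP cells at 0 h and 799 to 950 bp in WT cells at 0 h. Of the blood markers, CD68 carried H3K4me3 in every group, SPI1 in both 60 h groups, and PTPRC in none. The library lists held 14898 to 17364 peaks for H3K4me3, 8969 to 23437 for H3K27ac and 1338 to 19317 for H3K27me3.

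H3K4me3 was present at every gene of the TGF-beta branch and at only part of the BMP branch. All 12 genes of the TGF-beta branch and both shared genes had H3K4me3 base in every one of the 8 libraries. At SMAD4 most of that base lay within 1 kb of an end of ELAC1 or LOC102159046. In CBP 0 h replicate 2 all 1417 bp at SMAD4 lay there. Of the 18 genes of the BMP branch, 9 had base in every library, 3 (BMP2, GDF6 and CHRD) in some, and 6 (BMP5, BMP6, BMP7, GDF5, SMAD9 and GREM1) in none. Of all protein-coding genes, 60.1% had base in every library and 30.4% in none. The 6 genes without H3K4me3 comprised 4 ligands, 1 receptor SMAD and 1 antagonist, while all 8 receptors of both branches carried the mark. The branches were not tested against each other.

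H3K27ac base was listed in some library for all 12 TGF-beta genes and for 12 of the 18 BMP genes, and BMP2, BMP5, BMP6, GDF5, GDF6 and GREM1 had none, where 41.3% of all protein-coding genes had none. BMP7 and SMAD9 carried H3K27ac with no H3K4me3. No H3K27me3 base was listed at 26 of the 32 genes, near the 74.1% of all protein-coding genes without it. The 4 genes with H3K27me3 in every library, BMP6, BMP7, GDF6 and GREM1, were all of the BMP branch, and 3 of them had no H3K4me3. ACVR1B and CHRD had short H3K27me3 peaks in some libraries, of at most 871 and 330 bp. BMP5 and GDF5 had no base of any of the 3 marks. The filter for testing (at least 200 bp in at least 2 libraries) passed 26 of the 32 genes for H3K4me3, 26 for H3K27ac and 5 for H3K27me3. A gene that passed only through the groups where it is long had to differ from a group at or near 0, so such genes are given by their lengths with no p, although the counts of calls include them.

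**Figure D1:**
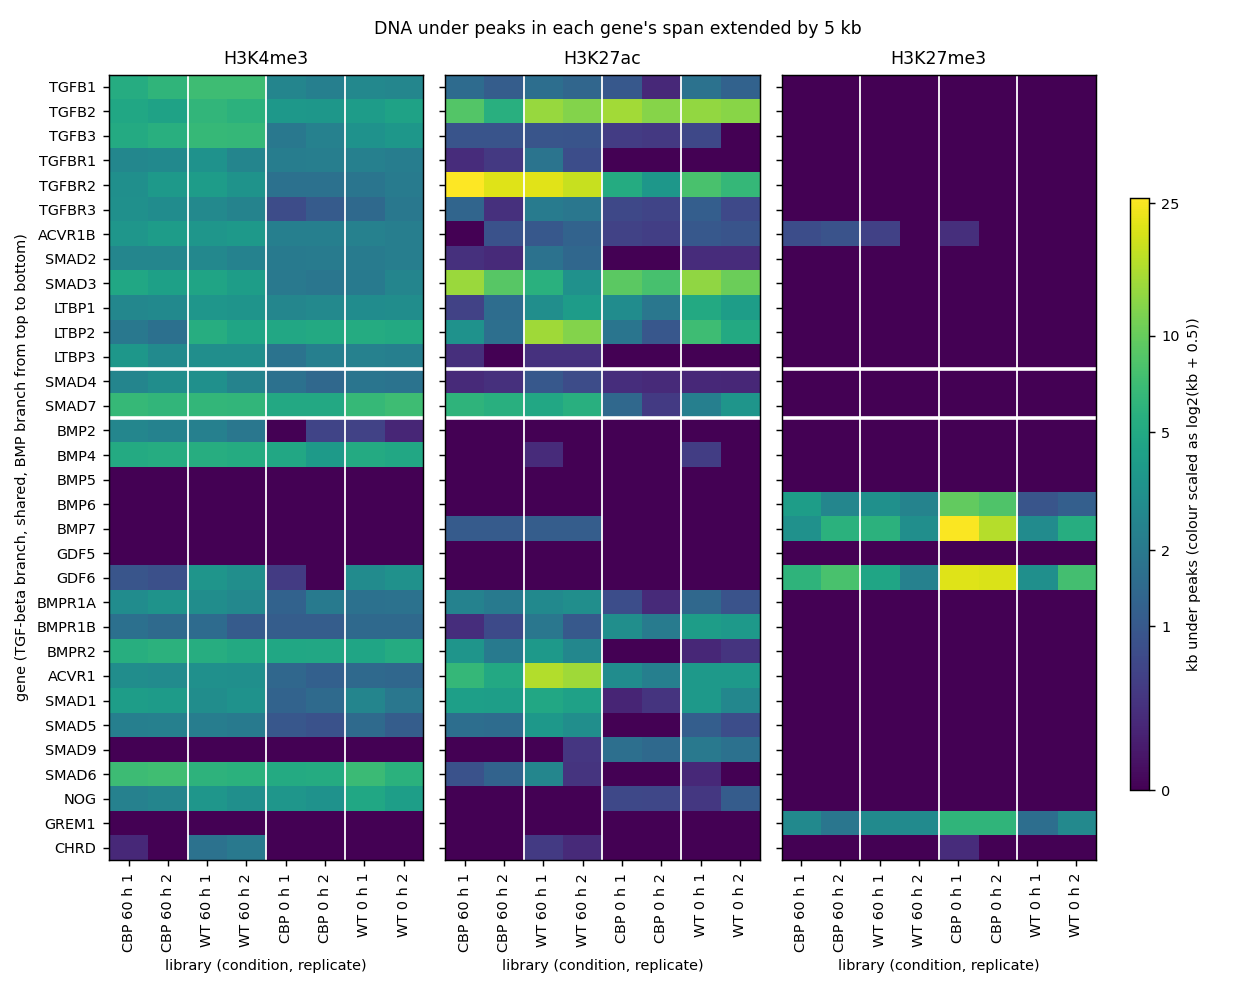
Kilobases of DNA under peaks for the 32 genes (down) in the 8 libraries of each mark (across), coloured on a log2 scale of kb plus 0.5. From top to bottom stand the 12 TGF-beta genes, SMAD4 and SMAD7, and the 18 BMP genes; the H3K27me3 panel is filled mainly at BMP6, BMP7, GDF6 and GREM1, with the longest unscaled values in CBP cells at 0 h, an order that turns against WT cells at 0 h with quantile scaling.

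The first comparison is of differentiating with proliferating WT cells. In H3K4me3, 16 of 26 tested members rose at 60 h and 1, NOG, fell, where 42.2% of all genes tested rose and 5.85% fell (48.1% called in all). The TGF-beta branch had 9 of 12 higher and 0 lower, and the BMP branch 6 of 12 higher and 1 lower. The median log2 change was 0.46 over the tested members, 0.49 over the TGF-beta branch and 0.26 over the BMP branch, beside 0.18 over all genes. With libraries scaled to equal quantiles, which removes such an overall shift, 10 members rose and 5 fell. In H3K27ac, 11 of 26 tested members rose and 4 fell, with 46.8% and 10.6% of all genes (57.5% called in all), so the members' shares lay near the background. Their median was 0.83, beside 0.69 over all genes, and quantile scaling gave 7 higher and 5 lower.

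The ligand genes of the TGF-beta branch gained H3K4me3 with differentiation. TGFB1, the founding ligand, had 5353 and 6200 bp of H3K4me3 in CBP cells and 7209 and 7164 bp in WT cells at 60 h. At 0 h TGFB1 had 2545 and 2279 bp in CBP cells and 2688 and 2571 bp in WT cells. Both 60 h groups lay far above both 0 h groups, and WT cells rose (log2 1.30 ± 0.0764, 1.12 relative to the median, adjusted p = 6.77e-05). Its window also holds the ends of CCDC97, B9D2 and LOC110261354, and outside 1 kb of those ends the listed length was 2441 and 2700 bp in WT cells at 60 h, against 678 and 634 bp in WT cells at 0 h. TGFB2 had 4805 and 4425 bp of H3K4me3 in CBP cells and 6295 and 5881 bp in WT cells at 60 h. At 0 h TGFB2 had 3638 and 3560 bp in CBP cells and 3963 and 4448 bp in WT cells. WT cells at 60 h were the highest group. TGFB3 had 5183 and 5600 bp of H3K4me3 in CBP cells and 6669 and 6504 bp in WT cells at 60 h. At 0 h TGFB3 had 1959 and 2348 bp in CBP cells and 3296 and 3609 bp in WT cells. Both rose in WT cells at 60 h, TGFB2 (log2 0.49 ± 0.0673, 0.31 relative to the median, adjusted p = 0.00187) and TGFB3, whose window holds an end of IFT43 (log2 0.84 ± 0.082, 0.67 relative to the median, adjusted p = 0.000473, lost when only the gene ends were counted). Among BMP ligands, BMP2 had 2591 and 2414 bp of H3K4me3 in CBP cells and 2322 and 1927 bp in WT cells at 60 h. At 0 h BMP2 had 0 and 633 bp in CBP cells and 593 and 271 bp in WT cells. It was low or absent at 0 h and rose (log2 1.51 ± 0.372, 1.34 relative to the median, adjusted p = 0.0171), a call lost without WT 0 h replicate 2, WT 60 h replicate 1 or WT 60 h replicate 2 (log2 1.26 to 1.76 over the 8 fits that each left out 1 library). BMP4 held 3870 to 5434 bp of H3K4me3 in the 8 libraries and was not called in any comparison.

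The BMP7 gene (chromosome 17, 57567770 to 57676516), a BMP ligand, had a single H3K27ac region, 16.8 kb inside its lower-coordinate end (57583957 to 57585271). BMP7 had 1052 and 1062 bp of H3K27ac in CBP cells and 1104 and 1125 bp in WT cells at 60 h. At 0 h BMP7 had none in either group. The region was listed in all 4 libraries at 60 h and in none at 0 h, and the difference between CBP and WT cells at 60 h did not pass the test (log2 -0.05 ± 0.0888, 0.67 relative to the median, adjusted p = 0.671). With quantile scaling BMP7 was called higher in CBP cells at 60 h (log2 0.80, limma adjusted p = 0.0130).

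Of the 8 receptor genes, H3K4me3 rose at 5, where 42.2% of all genes rose, and H3K27ac rose at 5 and fell at 1, where 46.8% and 10.6% of all genes did. TGFBR2, the type II receptor of TGF-beta, had 3126 and 3777 bp of H3K4me3 in CBP cells and 3995 and 3336 bp in WT cells at 60 h. At 0 h TGFBR2 had 1690 and 1698 bp in CBP cells and 1845 and 2106 bp in WT cells. It also had 25842 and 21244 bp of H3K27ac in CBP cells and 21720 and 18553 bp in WT cells at 60 h. At 0 h TGFBR2 had 5226 and 3614 bp in CBP cells and 7956 and 6510 bp in WT cells. The 60 h groups were well above the 0 h groups in both marks. H3K4me3 rose in WT cells (log2 0.75 ± 0.109, 0.57 relative to the median, adjusted p = 0.00231) and H3K27ac (log2 1.42 ± 0.21, 0.73 relative to the median, adjusted p = 0.00332). Of 32 H3K27ac regions in the TGFBR2 window, 8 were listed in both WT libraries at 60 h and in neither at 0 h, and 1 the other way round. TGFBR1, its type I partner, had 332 and 474 bp of H3K27ac in CBP cells and 1791 and 787 bp in WT cells at 60 h. At 0 h TGFBR1 had none in either group. It was listed in all 4 libraries at 60 h and in none at 0 h. The H3K4me3 of TGFBR1 did not pass the test in that comparison (log2 0.29 ± 0.0999, 0.12 relative to the median, adjusted p = 0.0511).

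On the BMP side, ACVR1, a type I BMP receptor also called ALK2, had 3027 and 2908 bp of H3K4me3 in CBP cells and 3154 and 3137 bp in WT cells at 60 h. At 0 h ACVR1 had 1372 and 1189 bp in CBP cells and 1450 and 1392 bp in WT cells. It also had 6559 and 4965 bp of H3K27ac in CBP cells and 16216 and 14634 bp in WT cells at 60 h. At 0 h ACVR1 had 2955 and 2285 bp in CBP cells and 3717 and 3698 bp in WT cells. Both marks rose in WT cells at 60 h, H3K4me3 (log2 0.92 ± 0.0594, 0.75 relative to the median, adjusted p = 9.65e-05) and H3K27ac (log2 1.92 ± 0.168, 1.23 relative to the median, adjusted p = 0.000497). Of 16 H3K27ac regions in its window, 11 were listed in both WT libraries at 60 h and in neither at 0 h, and none the other way round. BMPR2, the type II BMP receptor, had 3448 and 2016 bp of H3K27ac in CBP cells and 3785 and 2627 bp in WT cells at 60 h. At 0 h BMPR2 had 0 and 0 bp in CBP cells and 281 and 407 bp in WT cells. It rose in WT cells (log2 2.12 ± 0.267, 1.43 relative to the median, adjusted p = 0.00189), while its H3K4me3 did not pass the test (log2 0.08 ± 0.071, -0.09 relative to the median, adjusted p = 0.368). BMPR1A, another type I receptor, had 2923 and 3366 bp of H3K4me3 in CBP cells and 3018 and 2704 bp in WT cells at 60 h. At 0 h BMPR1A had 1250 and 2029 bp in CBP cells and 1703 and 1742 bp in WT cells. WT cells rose (log2 0.60 ± 0.167, 0.42 relative to the median, adjusted p = 0.0274), a call lost with quantile scaling and when any 1 of the 4 WT libraries was left out (log2 0.53 to 0.66). ACVR1B, the activin type I receptor, had 3554 and 3990 bp of H3K4me3 in CBP cells and 3504 and 3699 bp in WT cells at 60 h. At 0 h ACVR1B had 2270 and 2260 bp in CBP cells and 2370 and 2243 bp in WT cells. WT cells rose there (log2 0.55 ± 0.061, 0.37 relative to the median, adjusted p = 0.000812). BMPR1B, the third BMP type I receptor, went the other way, with 347 and 720 bp of H3K27ac in CBP cells and 1898 and 1004 bp in WT cells at 60 h. At 0 h BMPR1B had 3035 and 2100 bp in CBP cells and 4029 and 3705 bp in WT cells. It fell in WT cells at 60 h (log2 -1.20 ± 0.31, -1.89 relative to the median, adjusted p = 0.0225), a call lost without WT 0 h replicate 1, WT 0 h replicate 2 or WT 60 h replicate 2 (log2 -1.54 to -0.86).

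The SMAD genes split. SMAD2, an effector of TGF-beta, had 371 and 303 bp of H3K27ac in CBP cells and 1750 and 1395 bp in WT cells at 60 h. At 0 h SMAD2 had 0 and 0 bp in CBP cells and 333 and 333 bp in WT cells. WT cells rose (log2 1.31 ± 0.122, 0.62 relative to the median, adjusted p = 0.000543). SMAD5, an effector of BMP, had 2266 and 2297 bp of H3K4me3 in CBP cells and 2197 and 2029 bp in WT cells at 60 h. At 0 h SMAD5 had 969 and 864 bp in CBP cells and 1475 and 1106 bp in WT cells. It also had 1596 and 1543 bp of H3K27ac in CBP cells and 3665 and 3071 bp in WT cells at 60 h. At 0 h SMAD5 had 0 and 0 bp in CBP cells and 1149 and 768 bp in WT cells. WT cells rose in H3K4me3 (log2 0.55 ± 0.102, 0.38 relative to the median, adjusted p = 0.00569) and in H3K27ac (log2 1.42 ± 0.159, 0.73 relative to the median, adjusted p = 0.00122). SMAD9, the third BMP effector, fell, with 0 and 0 bp of H3K27ac in CBP cells and 0 and 437 bp in WT cells at 60 h. At 0 h SMAD9 had 1623 and 1442 bp in CBP cells and 1973 and 1689 bp in WT cells. Both groups at 0 h had at least 1442 bp and only 1 library at 60 h had any. SMAD9 thus passed the filter only through the 0 h groups.

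SMAD3 (chromosome 1, 164998457 to 165124455), the other effector of TGF-beta, moved in opposite directions in the 2 active marks. It had 4816 and 4291 bp of H3K4me3 in CBP cells and 4589 and 4026 bp in WT cells at 60 h. At 0 h SMAD3 had 1980 and 1878 bp in CBP cells and 2051 and 2531 bp in WT cells. All of it lay in 1 region at the lower-coordinate end (164997249 to 165002117). WT cells rose there (log2 0.79 ± 0.103, 0.61 relative to the median, adjusted p = 0.0015). It also had 14104 and 8934 bp of H3K27ac in CBP cells and 5688 and 3210 bp in WT cells at 60 h. At 0 h SMAD3 had 9304 and 7878 bp in CBP cells and 13195 and 10446 bp in WT cells. WT cells fell (log2 -1.35 ± 0.33, -2.04 relative to the median, adjusted p = 0.0186), a call lost without WT 0 h replicate 1, WT 0 h replicate 2 or WT 60 h replicate 2 (log2 -1.72 to -0.98). Counted within 5 kb of either gene end instead of the whole span, the change was 0.84, so the fall lay more than 5 kb inside the gene. Of 29 H3K27ac regions, 6 were listed in both WT libraries at 0 h and in neither at 60 h. The widest of the 6 (165082371 to 165084933) had no base in WT cells at 60 h, against 2258 and 2095 bp in WT cells at 0 h.

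Among antagonists, CHRD, which encodes chordin, appeared with differentiation in WT cells, and NOG, which encodes noggin, receded. CHRD had 293 and 0 bp of H3K4me3 in CBP cells and 1742 and 1999 bp in WT cells at 60 h. At 0 h CHRD had none in either group. It was listed in both WT libraries at 60 h, in 1 CBP library at 60 h and in none at 0 h. Both of its regions also lie within 1 kb of an end of THPO. NOG had 2360 and 2557 bp of H3K4me3 in CBP cells and 3526 and 3140 bp in WT cells at 60 h. At 0 h NOG had 3496 and 3291 bp in CBP cells and 4860 and 4137 bp in WT cells. WT cells fell (log2 -0.38 ± 0.0872, -0.56 relative to the median, adjusted p = 0.0132), a call lost without WT 0 h replicate 1 or WT 60 h replicate 2 (log2 -0.49 to -0.28). This call was also lost with the gene span alone, which is 886 bp. NOG also had no H3K27ac base in either group at 60 h. At 0 h NOG had 687 and 663 bp in CBP cells and 457 and 1091 bp in WT cells. It was listed in all 4 libraries at 0 h. The other members called in H3K4me3 were TGFBR3, SMAD2, LTBP1, SMAD1 and SMAD4, all higher, with log2 changes between 0.19 and 0.51. With quantile scaling none of those 5 was called and LTBP1 changed by -0.03, and each of the 5 calls was lost without at least 1 of the libraries. The SMAD4 call was also lost without the ends of other genes in its window. The other members called in H3K27ac were LTBP3, BMPR1A, CHRD and SMAD4, all higher, and those 4 were not called with quantile scaling either. The H3K27ac base of CHRD all lay within 1 kb of an end of THPO.

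**Figure D2:**
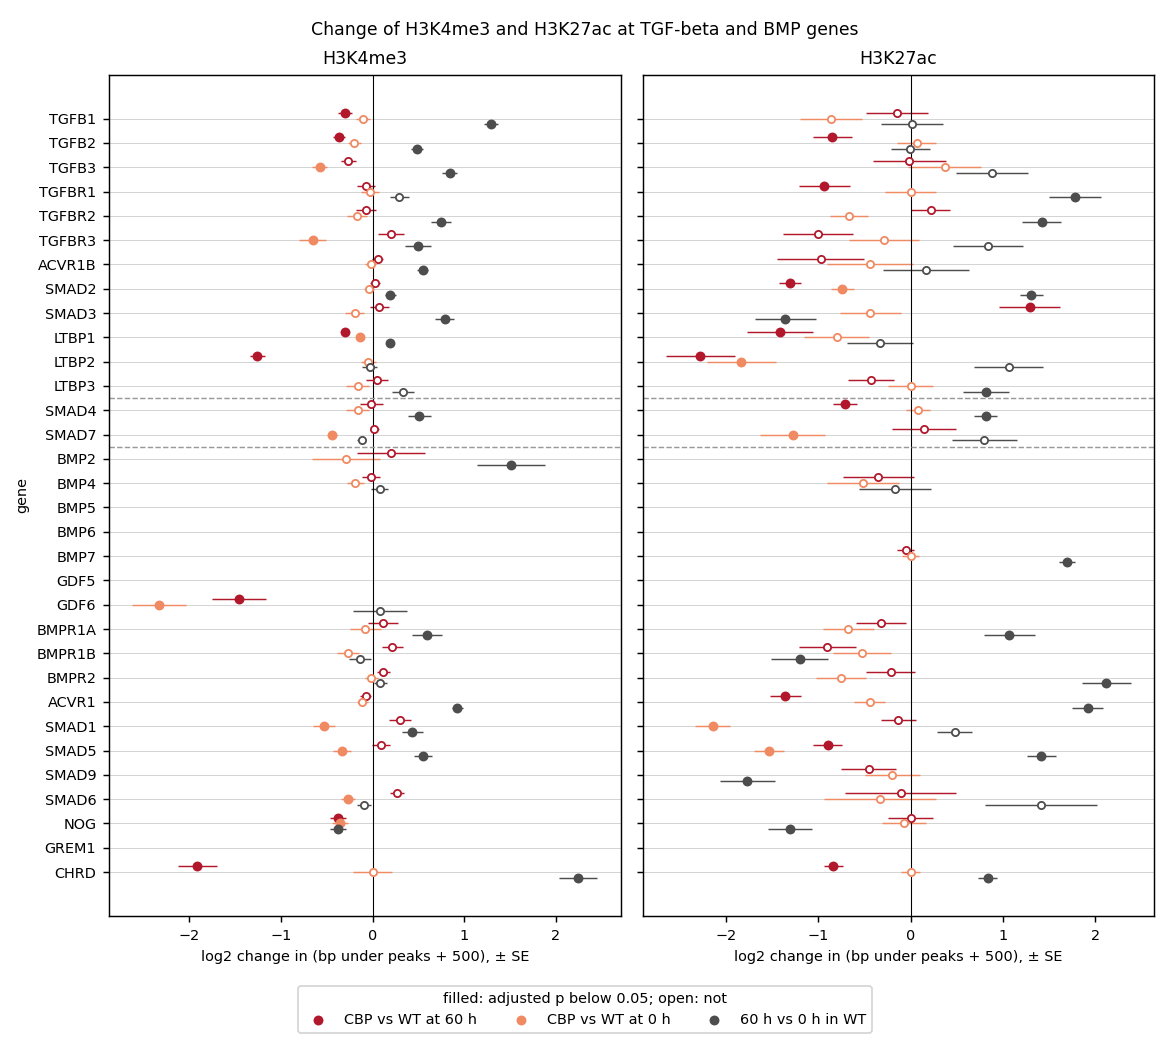
Log2 change of bp under peaks plus 500, with its SE as a bar, for each tested gene and 3 comparisons, in H3K4me3 (left) and H3K27ac (right); filled points passed an adjusted p of 0.05 and open ones did not. LTBP2 and GDF6 stand furthest to the left for CBP against WT in H3K4me3, apart from CHRD at 60 h, and SMAD3 is the only filled point to the right for CBP against WT in H3K27ac.

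The second comparison is of cells given the inhibitor with WT cells at 60 h of differentiation. In H3K4me3, 7 of 26 tested members were lower in CBP cells and 0 were higher, where 7.36% of all genes tested were lower and 10.3% were higher (17.7% called in all). The 7 were TGFB1, TGFB2, LTBP1 and LTBP2 of the TGF-beta branch and GDF6, NOG and CHRD of the BMP branch. The median log2 change of the tested members was 0.00, beside 0.04 over all genes. In H3K27ac, 9 of 26 were lower and 1 was higher, with 45.8% and 3.03% of all genes (48.8% called in all), a share of lower calls under the background. The median was -0.44 over the tested members, -0.89 over the TGF-beta branch and -0.33 over the BMP branch, beside -0.72 over all genes. Quantile scaling gave 3 higher and 3 lower.

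LTBP2 was lower in both active marks in CBP cells at 60 h. The gene (chromosome 7, 97744974 to 97852848) encodes a matrix microfibril protein of the LTBP family that, unlike LTBP1 and LTBP3, does not bind latent TGF-beta. It had 1968 and 1678 bp of H3K4me3 in CBP cells and 5444 and 4668 bp in WT cells at 60 h. At 0 h LTBP2 had 4936 and 5064 bp in CBP cells and 5231 and 5112 bp in WT cells. CBP cells at 60 h were far below the 3 other groups. They were lower than WT cells at 60 h (log2 -1.26 ± 0.0849, -1.30 relative to the median, adjusted p = 0.000427). The window holds 2 H3K4me3 regions. The region at the upper-coordinate end of LTBP2 (chromosome 7, 97849035 to 97853110) had 556 and 0 bp in CBP cells at 60 h, against 3751 and 3299 bp in WT cells at 60 h, and 3593 and 3577 bp in CBP cells at 0 h, against 3850 and 3577 bp in WT cells at 0 h. The region beyond its lower-coordinate end, at NPC2 and ISCA2, had 2538 and 2837 bp in CBP cells at 60 h, against 2891 and 2529 bp in WT cells at 60 h. Of the 2 regions, the one at the LTBP2 end separated CBP from WT libraries at 60 h, and the one at NPC2 and ISCA2 did not.

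LTBP2 also had 3291 and 1634 bp of H3K27ac in CBP cells and 14463 and 12183 bp in WT cells at 60 h. At 0 h LTBP2 had 1828 and 979 bp in CBP cells and 7268 and 5100 bp in WT cells. Both CBP groups were below both WT groups. The change was log2 -2.28 ± 0.372, -1.56 relative to the median, adjusted p = 0.00584 at 60 h. Of 20 H3K27ac regions in the window, 5 were listed in both WT libraries and neither CBP library at 60 h, and 0 the other way round. The fibroblast list was also lower in CBP cells. Its summed H3K27ac was 9430 to 10400 bp in CBP cells at 60 h, against 21609 to 26248 bp in WT cells at 60 h. At 0 h it was 922 to 1391 bp in CBP cells, against 5103 to 5213 bp in WT cells. In H3K4me3 the fibroblast list had 13793 to 14594 bp in CBP cells at 60 h, against 14801 to 15787 bp in WT cells. The satellite cell and myoblast list was lower in H3K27ac too, so the fall was not particular to the fibroblast list. It summed to 20545 to 26200 bp in CBP cells at 60 h, against 39315 to 41802 bp in WT cells at 60 h. At 0 h it summed to 5192 to 7928 bp in CBP cells, against 18062 to 19391 bp in WT cells. The part of fibroblasts in the LTBP2 result was not tested. LTBP1, which holds latent TGF-beta in the matrix, had 2657 and 2775 bp of H3K4me3 in CBP cells and 3509 and 3426 bp in WT cells at 60 h. At 0 h LTBP1 had 2602 and 2737 bp in CBP cells and 2965 and 3014 bp in WT cells. It was lower at 60 h in CBP cells (log2 -0.30 ± 0.0439, -0.34 relative to the median, adjusted p = 0.00616) and changed by 0.09 when counted within 5 kb of its gene ends. LTBP1 also had 595 and 1556 bp of H3K27ac in CBP cells and 3081 and 3963 bp in WT cells at 60 h. At 0 h LTBP1 had 2946 and 1919 bp in CBP cells and 5039 and 4065 bp in WT cells. It was lower in CBP cells at 60 h (log2 -1.41 ± 0.356, -0.69 relative to the median, adjusted p = 0.0243), a call lost with quantile scaling and without CBP 60 h replicate 1, WT 60 h replicate 1 or WT 60 h replicate 2 (log2 -1.87 to -0.96). LTBP3, the other member that binds latent TGF-beta, was not called in either mark (log2 0.05 ± 0.123, 0.01 relative to the median, adjusted p = 0.839 in H3K4me3).

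**Figure D3:**
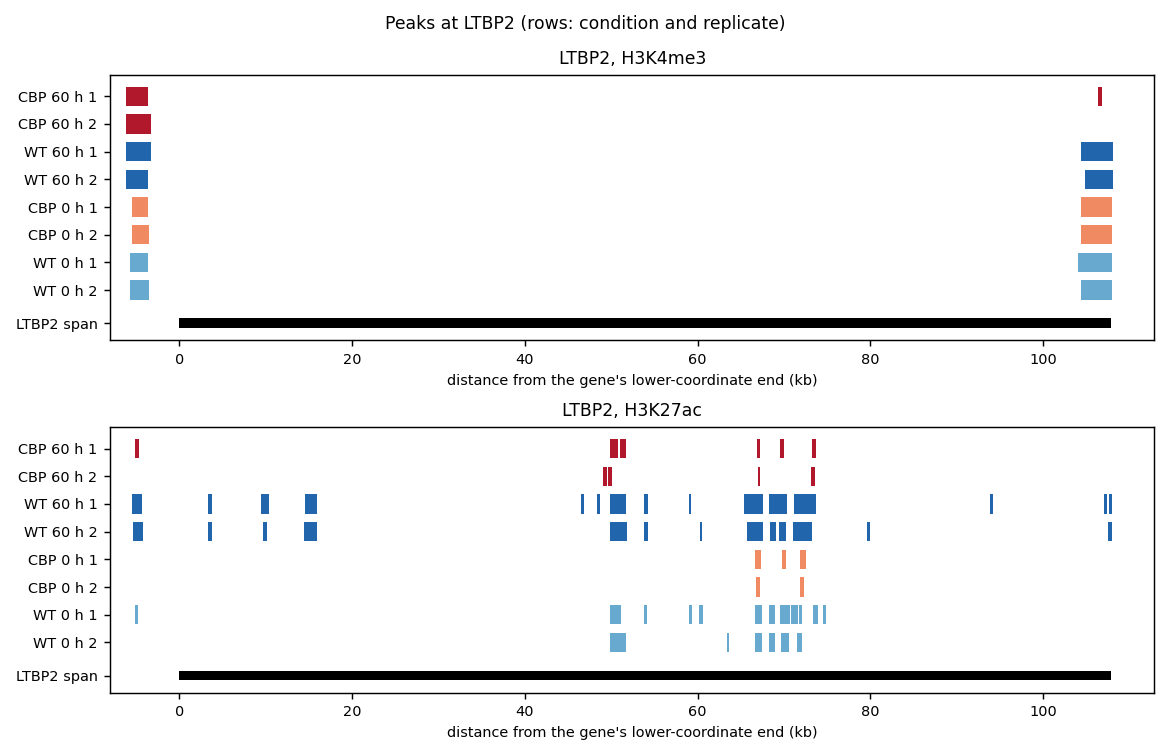
Peaks at LTBP2 in the 8 H3K4me3 libraries (top) and the 8 H3K27ac libraries (bottom), each peak a bar placed by its distance in kb from the gene's lower-coordinate end, with the gene's span in black. The H3K4me3 block at the right-hand end of the gene is present in 6 libraries and is reduced to 556 and 0 bp in CBP cells at 60 h, while the block left of the gene stays.

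The other H3K4me3 falls at 60 h were in ligands and antagonists. GDF6 (chromosome 4, 40473015 to 40491142), a BMP-family ligand of skeletal development, had 924 and 809 bp of H3K4me3 in CBP cells and 3457 and 3066 bp in WT cells at 60 h. At 0 h GDF6 had 500 and 0 bp in CBP cells and 2876 and 3235 bp in WT cells. CBP cells were below WT cells at either time, with no overlap. At 60 h the change was log2 -1.46 ± 0.294, -1.50 relative to the median, adjusted p = 0.0203, a call lost when any 1 of the 4 libraries at 60 h was left out (log2 -1.54 to -1.39). CHRD, with 293 and 0 bp in CBP cells at 60 h against 1742 and 1999 bp in WT cells at 60 h, passed the filter only through WT cells at 60 h. Its H3K27ac was listed only in WT cells at 60 h, with 485 and 306 bp, and passed the filter only there. All of this H3K27ac base lies within 1 kb of an end of THPO, so it cannot be assigned to CHRD. NOG was lower (log2 -0.37 ± 0.0872, -0.41 relative to the median, adjusted p = 0.0332), a call that held only without WT 0 h replicate 1 or WT 0 h replicate 2 when 1 library was left out (log2 -0.45 to -0.30). The NOG call was also lost with the gene span alone. TGFB2 was lower (log2 -0.37 ± 0.0673, -0.41 relative to the median, adjusted p = 0.0152), as was TGFB1 (log2 -0.30 ± 0.0764, -0.34 relative to the median, adjusted p = 0.0454). The TGFB2 call was lost without CBP 60 h replicate 2, WT 60 h replicate 1 or WT 60 h replicate 2 (log2 -0.42 to -0.31). The TGFB1 call held only without CBP 60 h replicate 2 among those fits (log2 -0.39 to -0.20), and was lost without the ends of its neighbouring genes.

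In H3K27ac at 60 h, SMAD3 was the single member called higher in CBP cells without scaling. With quantile scaling 3 members were called higher, SMAD3 (log2 1.79), BMP7 (log2 0.80) and TGFBR2 (log2 0.49). From the lengths of SMAD3 given above, both CBP libraries at 60 h exceeded both WT libraries at 60 h and overlapped both 0 h groups. The change was log2 1.29 ± 0.33, 2.01 relative to the median, adjusted p = 0.0253, a call lost without CBP 60 h replicate 1 or WT 60 h replicate 2 (log2 0.92 to 1.66) and when only the gene ends were counted. Of its 29 regions, 5 were listed in both CBP libraries and in neither WT library at 60 h, and 0 the other way round. They include the region at 165082371 to 165084933, with 1630 and 1266 bp in CBP cells at 60 h, against 0 and 0 bp in WT cells at 60 h.

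ACVR1 was lower in H3K27ac in CBP cells (log2 -1.36 ± 0.168, -0.64 relative to the median, adjusted p = 0.00222), with the groups apart at 60 h, and changed by 0.05 when counted within 5 kb of its gene ends. Its H3K4me3 was not called (log2 -0.07 ± 0.0594, -0.11 relative to the median, adjusted p = 0.462). SMAD2 was lower (log2 -1.30 ± 0.122, -0.58 relative to the median, adjusted p = 0.000685), as was SMAD5 (log2 -0.90 ± 0.159, -0.18 relative to the median, adjusted p = 0.00762). The call of SMAD5 was lost without WT 60 h replicate 1 (log2 -1.01 to -0.79) and with quantile scaling. TGFB2 had 8641 and 5612 bp of H3K27ac in CBP cells and 13801 and 12161 bp in WT cells at 60 h. At 0 h TGFB2 had 14899 and 12443 bp in CBP cells and 13352 and 12585 bp in WT cells. CBP cells at 60 h were the low group (log2 -0.85 ± 0.212, -0.13 relative to the median, adjusted p = 0.0239), a call lost with quantile scaling and without CBP 60 h replicate 2, WT 60 h replicate 1 or WT 60 h replicate 2 (log2 -1.14 to -0.56). TGFBR1 was lower (log2 -0.93 ± 0.279, -0.21 relative to the median, adjusted p = 0.0416), but changed by 0.85 with lists of equal length, and the call held only without WT 60 h replicate 2 among the fits that left out 1 library (log2 -1.35 to -0.52). SMAD4, the common partner of both branches, had 304 and 373 bp of H3K27ac in CBP cells and 1002 and 750 bp in WT cells at 60 h. At 0 h SMAD4 had 340 and 307 bp in CBP cells and 284 and 275 bp in WT cells. All of this base lies within 1 kb of an end of ELAC1 or LOC102159046, so it cannot be assigned to SMAD4. WT cells at 60 h stood above the rest, and the change of CBP cells was log2 -0.71 ± 0.127, 0.01 relative to the median, adjusted p = 0.00736, close to that of the median gene, and 0.06 with quantile scaling. TGFBR2, the member with the longest H3K27ac at 60 h, was not called (log2 0.22 ± 0.21, 0.94 relative to the median, adjusted p = 0.428): the CBP range of 21244 to 25842 bp overlapped the WT range of 18553 to 21720 bp. With quantile scaling TGFBR2 was called higher in CBP cells (log2 0.49, limma adjusted p = 0.0196).

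**Figure D4:**
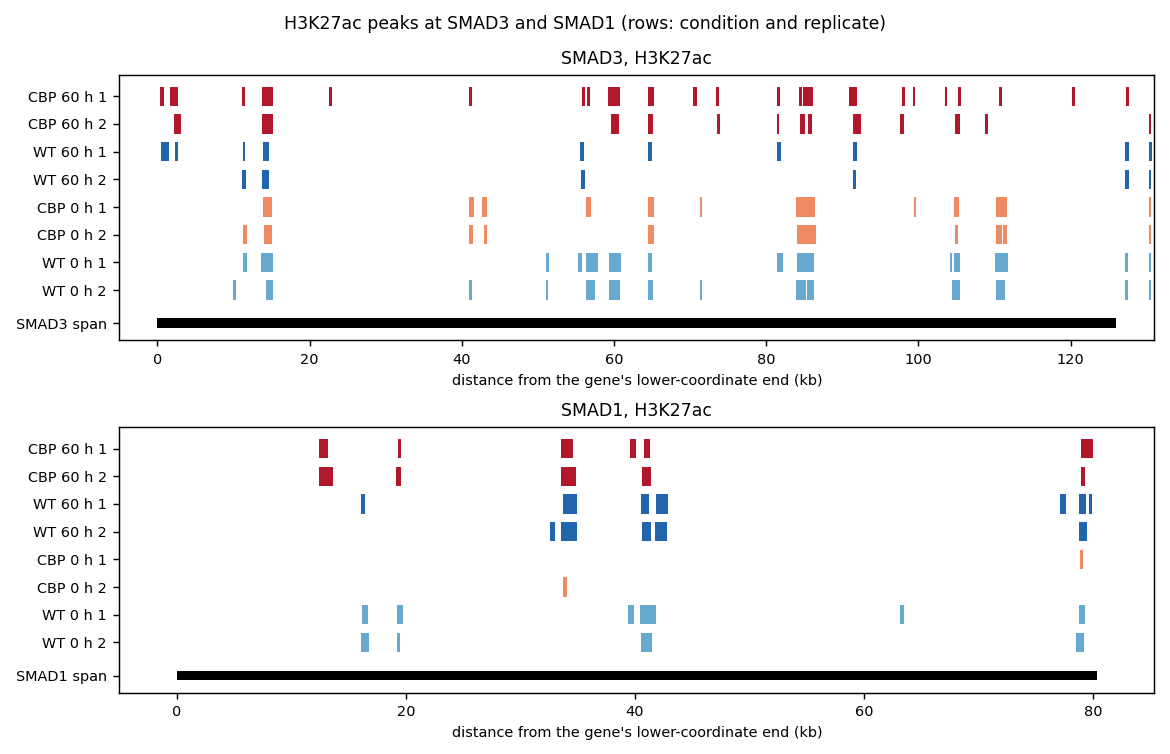
H3K27ac peaks at SMAD3 (top) and SMAD1 (bottom) in the 8 libraries, placed by distance in kb from each gene's lower-coordinate end. At SMAD3 the CBP libraries at 60 h hold 22 and 12 regions, against 10 and 6 in WT cells at 60 h, and at SMAD1 the CBP libraries at 0 h hold 1 region each, against 6 and 4 in WT cells at 0 h.

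The third comparison is of proliferating cells given the inhibitor for 48 h with WT cells at 0 h. In H3K4me3, 9 of 26 tested members were lower in CBP cells and 0 were higher, where 41.7% of all genes tested were lower and 1.19% were higher (42.9% called in all). The median was -0.18 over the tested members and -0.19 over all genes. With quantile scaling 2 were higher and 2 lower. In H3K27ac, 5 were lower and 0 higher, with 32.6% and 1.4% of all genes (34% called in all), and quantile scaling gave 5 higher and 3 lower.

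GDF6 had the largest fall of the 9 in H3K4me3 (log2 -2.33 ± 0.294, -2.14 relative to the median, adjusted p = 0.00176), with lengths given above. Its region at the lower-coordinate end (40472480 to 40475966) had 500 and 0 bp in CBP cells at 0 h, against 2564 and 2841 bp in WT cells at 0 h, and this call was kept in every alternative tried. TGFB3 was lower (log2 -0.58 ± 0.082, -0.39 relative to the median, adjusted p = 0.00267), a call lost with lists of equal length. TGFBR3, the co-receptor betaglycan, had 3170 and 2950 bp of H3K4me3 in CBP cells and 2752 and 2438 bp in WT cells at 60 h. At 0 h TGFBR3 had 751 and 1057 bp in CBP cells and 1455 and 1966 bp in WT cells. CBP cells at 0 h were lowest (log2 -0.65 ± 0.144, -0.47 relative to the median, adjusted p = 0.0131), a call lost with quantile scaling and without CBP 0 h replicate 1 or WT 0 h replicate 2 (log2 -0.82 to -0.49). SMAD7, the inhibitory SMAD of both branches, had 6604 and 6309 bp of H3K4me3 in CBP cells and 6377 and 6341 bp in WT cells at 60 h. At 0 h SMAD7 had 4985 and 5007 bp in CBP cells and 6674 and 7232 bp in WT cells. The 2 CBP libraries at 0 h were below the other 6 (log2 -0.44 ± 0.0473, -0.25 relative to the median, adjusted p = 0.00102), not called with quantile scaling. SMAD1 had 4073 and 3905 bp of H3K4me3 in CBP cells and 2982 and 3309 bp in WT cells at 60 h. At 0 h SMAD1 had 1270 and 1474 bp in CBP cells and 2522 and 1903 bp in WT cells. All of it lay in 1 region at its upper-coordinate end. CBP cells at 0 h were again lowest (log2 -0.53 ± 0.117, -0.34 relative to the median, adjusted p = 0.0133), a call lost without CBP 0 h replicate 1 (log2 -0.69 to -0.36) and with quantile scaling.

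SMAD6, the inhibitory SMAD of the BMP branch, had 7062 and 7302 bp of H3K4me3 in CBP cells and 5982 and 5820 bp in WT cells at 60 h. At 0 h SMAD6 had 5146 and 5251 bp in CBP cells and 6943 and 5793 bp in WT cells. Its change was log2 -0.26 ± 0.0775, -0.08 relative to the median, adjusted p = 0.0351, and 0.04 with quantile scaling. NOG changed by log2 -0.36 ± 0.0872, -0.17 relative to the median, adjusted p = 0.0189, SMAD5 by log2 -0.33 ± 0.102, -0.14 relative to the median, adjusted p = 0.0403 and LTBP1 by log2 -0.14 ± 0.0439, 0.05 relative to the median, adjusted p = 0.0434. With quantile scaling the changes were -0.11 for NOG, -0.075 for SMAD5 and 0.10 for LTBP1, and none of them was called. The NOG and SMAD5 calls were also lost with the gene span alone. The calls of SMAD6 and SMAD5 held only without WT 0 h replicate 2 among the fits that left out 1 library (log2 -0.39 to -0.14 and -0.48 to -0.18), and that of LTBP1 only without CBP 60 h replicate 1 or CBP 60 h replicate 2 (log2 -0.17 to -0.11). The NOG call was lost without CBP 0 h replicate 1, CBP 0 h replicate 2 or WT 0 h replicate 1 (log2 -0.46 to -0.25).

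SMAD1 (chromosome 8, 82907557 to 82987909), an effector of BMP signals, lost most of its H3K27ac in proliferating CBP cells. It had 4231 and 4126 bp of H3K27ac in CBP cells and 4924 and 4343 bp in WT cells at 60 h. At 0 h SMAD1 had 258 and 413 bp in CBP cells and 3814 and 2630 bp in WT cells. CBP cells at 0 h stood apart from the 3 other groups (log2 -2.14 ± 0.188, -1.69 relative to the median, adjusted p = 0.00129). The call was kept without each library in turn and with quantile scaling, and lost when only the gene ends were counted. Of 10 regions in the window, 4 were listed in both WT libraries at 0 h and 3 of those 4 in neither CBP library, the widest being 2429 bp (82947976 to 82950404). SMAD5 had no H3K27ac base in CBP cells at 0 h, against 1149 and 768 bp in WT cells at 0 h (adjusted p = 0.00205). This SMAD5 call was lost with only peaks of −log10 q of at least 5 and with lists of equal length. LTBP2 was lower (log2 -1.83 ± 0.372, -1.37 relative to the median, adjusted p = 0.0166), a call lost without CBP 0 h replicate 2 or WT 0 h replicate 1 (log2 -2.16 to -1.50). SMAD2 had no base in CBP cells at 0 h, against 333 and 333 bp in WT cells at 0 h (adjusted p = 0.0081, lost without CBP 0 h replicate 2 and with quantile scaling). SMAD7 had 6131 and 5647 bp of H3K27ac in CBP cells and 4921 and 5641 bp in WT cells at 60 h. At 0 h SMAD7 had 1409 and 486 bp in CBP cells and 2263 and 3486 bp in WT cells. Its change of log2 -1.27 ± 0.351, -0.82 relative to the median, adjusted p = 0.0427 held only without CBP 0 h replicate 1 among the fits that left out 1 library (log2 -1.75 to -0.80) and was not called with quantile scaling.

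The difference between the inhibitor effects at 60 h and at 0 h was itself tested. In H3K4me3, 4 members had a higher effect at 60 h and 2 a lower one, where 37.9% of all genes tested were higher and 3.56% were lower (41.5% called in all), and quantile scaling gave 0 higher and 5 lower. LTBP2 (log2 -1.21 ± 0.12, -1.46 relative to the median, adjusted p = 0.00122) and CHRD were the 2 lower ones, and LTBP2 was kept with quantile scaling. CHRD had no base at 0 h and passed the filter only through WT cells at 60 h, so its call restates the difference at 60 h. TGFBR3, SMAD1, SMAD6 and SMAD7 were the 4 higher ones, between 0.46 and 0.86, none of which was called with quantile scaling. In H3K27ac, 2 were higher and 3 lower, with 11.5% and 18.9% of all genes (30.4% called in all), and quantile scaling gave 3 higher and 2 lower. SMAD1 (log2 2.01 ± 0.267, 2.17 relative to the median, adjusted p = 0.00421) was the larger of the 2 higher ones. SMAD3 (log2 1.73 ± 0.466, 1.89 relative to the median, adjusted p = 0.044) held only without CBP 60 h replicate 2 among the fits that left out 1 library (log2 1.36 to 2.096). The lower ones were ACVR1, CHRD and SMAD4, and neither CHRD nor SMAD4 was called with quantile scaling. The H3K27ac base of both CHRD and SMAD4 lies at the ends of other genes. SMAD4 held only without CBP 60 h replicate 1, CBP 60 h replicate 2 or WT 60 h replicate 2 (log2 -0.92 to -0.66). ACVR1 (log2 -0.92 ± 0.238, -0.76 relative to the median, adjusted p = 0.0397) held only without CBP 0 h replicate 2 or CBP 60 h replicate 1 (log2 -1.10 to -0.73).

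H3K27me3 lay on 4 BMP-branch genes and was longest in proliferating CBP cells. BMP7 had 3244 and 5820 bp of H3K27me3 in CBP cells and 5879 and 3029 bp in WT cells at 60 h. At 0 h BMP7 had 25195 and 16501 bp in CBP cells and 2879 and 5469 bp in WT cells. The CBP libraries at 0 h stood far above the rest. GDF6 had 6116 and 8035 bp of H3K27me3 in CBP cells and 4683 and 2369 bp in WT cells at 60 h. At 0 h GDF6 had 21448 and 20601 bp in CBP cells and 3087 and 7572 bp in WT cells. The WT libraries at 0 h differed from each other, and both lay below the CBP libraries. BMP6, a BMP ligand, had 4090 and 2594 bp of H3K27me3 in CBP cells and 3190 and 2430 bp in WT cells at 60 h. At 0 h BMP6 had 9658 and 8372 bp in CBP cells and 933 and 1175 bp in WT cells. CBP cells at 0 h were highest and WT cells at 0 h lowest. GREM1, which encodes the BMP antagonist gremlin, had 2773 and 1884 bp of H3K27me3 in CBP cells and 2828 and 2825 bp in WT cells at 60 h. At 0 h GREM1 had 6223 and 6258 bp in CBP cells and 1599 and 2758 bp in WT cells. In each of the 4 genes both CBP libraries at 0 h exceeded the other 6 libraries. The whole lists were ordered likewise, with 34.7 and 25.1 Mb under peaks in CBP cells at 0 h, against 1.11 to 10.4 Mb in the other 6. Of all genes tested, 77.2% were called higher in CBP cells at 0 h, so this order is not particular to the 4 genes. In CBP cells at 0 h the widest deposited peak was 21448 and 20481 bp at GDF6, over nearly the whole gene, 15015 and 12359 bp at the upper-coordinate end of BMP7, 6115 and 7732 bp at the lower-coordinate end of BMP6, and 5879 and 6258 bp at that of GREM1. These wide peaks made up nearly all of the length at GDF6 and GREM1, whereas BMP7 held 9 and 5 peaks and BMP6 5 and 2 in the CBP libraries at 0 h. In WT cells at 0 h the widest were 1013 and 3393 bp at GDF6, 1869 and 3457 bp at BMP7, 933 and 758 bp at BMP6, and 772 and 2758 bp at GREM1.

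At 0 h, 4 of 5 tested members were higher in CBP cells and 0 were lower, where 77.2% of all genes tested were higher and 0% were lower (77.2% called in all). BMP6 was higher (log2 2.62 ± 0.303, 0.44 relative to the median, adjusted p = 0.00075), as was BMP7 (log2 2.22 ± 0.504, 0.04 relative to the median, adjusted p = 0.00827). GDF6 was higher (log2 2.0 ± 0.498, -0.18 relative to the median, adjusted p = 0.0117), as was GREM1 (log2 1.37 ± 0.313, -0.81 relative to the median, adjusted p = 0.00847). These changes accompanied a difference of the whole lists: 34.7 and 25.1 Mb were under H3K27me3 peaks in CBP cells at 0 h, against 1.11 and 3.12 Mb in WT cells at 0 h. Against that shift, the change of GREM1 was smaller than that of the median gene, and with quantile scaling the changes were -0.36 at BMP6, -0.21 at BMP7, -0.39 at GDF6 and -1.40 at GREM1, so the direction of all 4 rests on the scaling, and quantile scaling gave 0 higher and 1 lower. The calls of BMP7 and GDF6 were lost without CBP 0 h replicate 1 (log2 1.81 to 2.63 and 1.41 to 2.58 over the left-out fits).

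At 60 h no H3K27me3 difference between CBP and WT cells passed the test in these genes. Of 5 tested members 0 were higher and 0 lower, where 12.1% and 2.62% of all genes were (14.7% called in all), and none had an unadjusted p below 0.05. Between WT cells at 60 h and at 0 h, 0 rose and 0 fell by limma's test, with 20.9% and 0.619% of all genes (21.5% called in all). In that comparison 1 member, BMP6, was past 0.05 before adjustment and not after it (limma adjusted p = 0.0528). The difference between the inhibitor effects was lower at 60 h for 3 members, BMP6 (log2 -2.42 ± 0.428, -0.61 relative to the median, adjusted p = 0.00683), BMP7 (log2 -2.18 ± 0.713, -0.37 relative to the median, adjusted p = 0.0422) and GREM1 (log2 -1.62 ± 0.443, 0.19 relative to the median, adjusted p = 0.0246), where 53% of all genes were lower and 3.95% were higher (56.9% called in all), and with quantile scaling 0 were called, with log2 0.08 for BMP6 and 0.52 for GREM1. The BMP7 call held only without WT 0 h replicate 2 or WT 60 h replicate 2 (log2 -2.61 to -1.76) and that of GREM1 only without WT 0 h replicate 1, WT 0 h replicate 2 or CBP 60 h replicate 1 (log2 -1.94 to -1.30).

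GDF6 carried both H3K4me3 and H3K27me3. In proliferating CBP cells it had 500 and 0 bp of H3K4me3 beside 21448 and 20601 bp of H3K27me3, and in WT cells at 0 h 2876 and 3235 bp of H3K4me3 beside 3087 and 7572 bp of H3K27me3. In CBP cells at 60 h it had 924 and 809 bp of H3K4me3 beside 6116 and 8035 bp of H3K27me3, against 3457 and 3066 bp beside 4683 and 2369 bp in WT cells at 60 h. Its H3K4me3 region at the lower-coordinate end lies within the H3K27me3 domain (40468987 to 40490439). These H3K27me3 lengths are unscaled. At 0 h their difference between CBP and WT cells was smaller than that of the median gene, and its direction turned with quantile scaling. The H3K27me3 difference at 60 h did not pass the test (log2 0.96 ± 0.498, 0.63 relative to the median, adjusted p = 0.287).

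**Figure D5:**
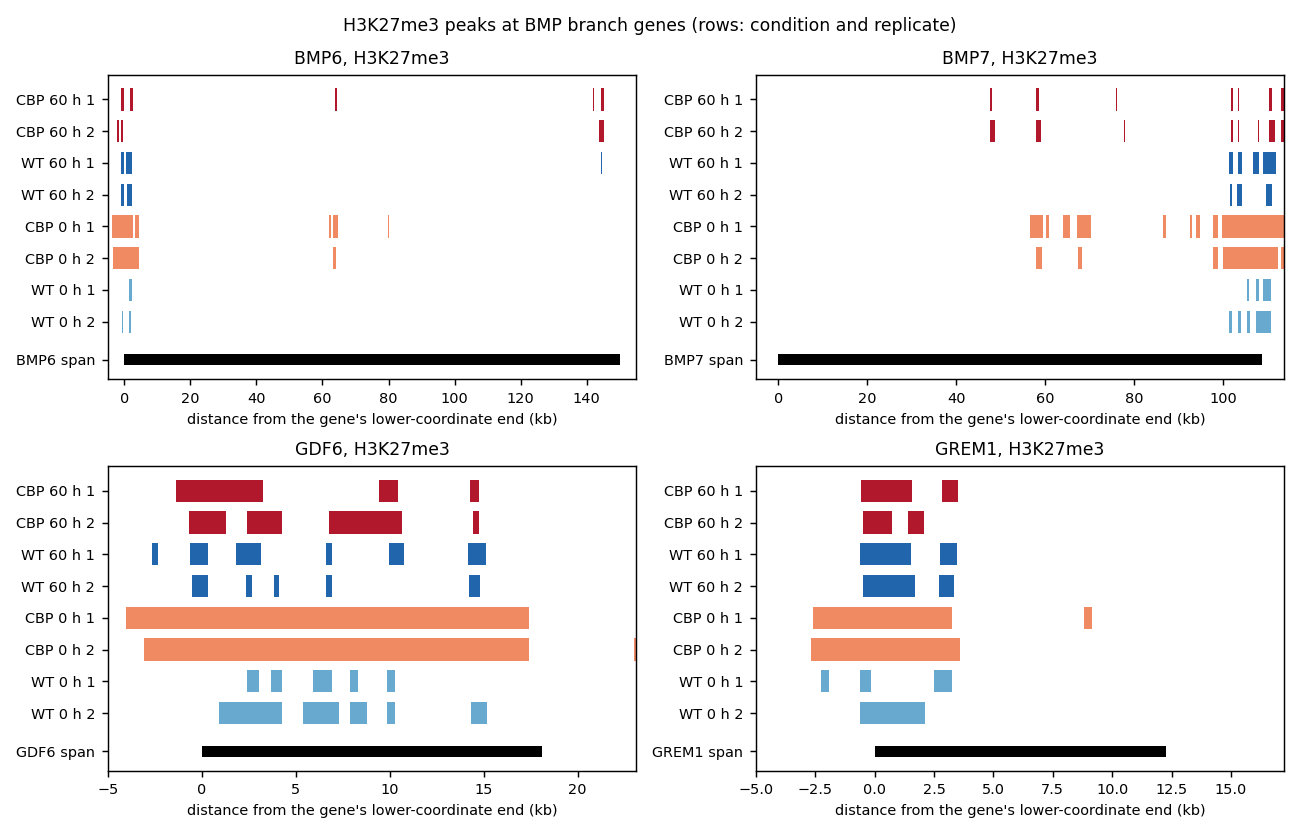
H3K27me3 peaks at BMP6, BMP7, GDF6 and GREM1 in the 8 libraries, placed by distance in kb from each gene's lower-coordinate end, with the gene's span in black. The 2 CBP libraries at 0 h hold the widest peaks, up to 21448 bp at GDF6 and 15015 bp at BMP7. In each gene the widest peaks of the other 6 are shorter. The lengths are unscaled, and quantile scaling turns the direction against WT cells at 0 h.

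A wider list of 54 further genes of the pathway, 52 of them found, gave the setting. In H3K4me3, 47 were tested: 25 rose and 4 fell in WT cells at 60 h (42.2% and 5.85% of all genes tested). In CBP cells 6 were higher and 8 lower at 60 h (10.3% and 7.36% of all genes), and 1 was higher and 26 lower at 0 h (1.19% and 41.7%). With quantile scaling those counts were 12 and 8, 5 and 9, and 5 and 7. ITGB6, an integrin subunit that activates latent TGF-beta, was listed only in WT cells at 60 h, with 2301 and 2302 bp. CHRDL2, a chordin-like antagonist, was likewise listed only there, with 715 and 509 bp. LTBP4 had 798 and 740 bp in CBP cells at 0 h, against 2746 and 2292 bp in WT cells at 0 h (log2 -1.25 ± 0.0799, -1.06 relative to the median, adjusted p = 0.000232). LRRC32, which tethers latent TGF-beta to the cell surface, had 2790 and 2835 bp in WT cells at 60 h, against 257 and 319 bp in WT cells at 0 h (log2 2.07 ± 0.0642, 1.90 relative to the median, adjusted p = 7.37e-06). ENG, the co-receptor endoglin, had 1639 and 1558 bp in WT cells at 60 h and none in WT cells at 0 h.

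In H3K27ac, 40 of the wider list were tested: 24 rose and 4 fell in WT cells at 60 h (46.8% and 10.6% of all genes tested). In CBP cells 1 was higher and 17 lower at 60 h (3.03% and 45.8% of all genes), and 0 were higher and 15 lower at 0 h (1.4% and 32.6%), shares of lower calls near the background. With quantile scaling those counts were 13 and 7, 7 and 3, and 3 and 9. BGN, which encodes the matrix proteoglycan biglycan, was listed only in WT cells at 60 h, with 4525 and 4111 bp. RGMB, a BMP co-receptor, had 987 and 751 bp in CBP cells at 0 h, against 4447 and 5595 bp in WT cells at 0 h (log2 -2.01 ± 0.284, -1.55 relative to the median, adjusted p = 0.00523). TGIF1, a repressor of SMAD2 and SMAD3 targets, had 1468 and 818 bp in CBP cells at 0 h, against 5624 and 5432 bp in WT cells at 0 h (log2 -1.90 ± 0.203, -1.45 relative to the median, adjusted p = 0.00219), and its effect at 60 h was higher by 1.77 ± 0.286 (1.93 relative to the median, adjusted p = 0.00855). In H3K27me3, 13 were tested and 11 were higher and 0 lower in CBP cells at 0 h, near the background of 77.2% higher, and 0 and 3 with quantile scaling. At 60 h 1 was higher and 0 lower in CBP cells, and 4 rose and 0 fell in WT cells (12.1% higher and 20.9% risen of all genes), which quantile scaling made 1 and 3, and 2 and 4.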

How the data were processed

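Histone marks were profiled by CUT&Tag in 32 samples, of which the 8 IgG samples are not analysed here. The authors deposited 24 peak lists, 1 per library, narrow peaks for H3K4me3 and H3K27ac and broad peaks for H3K27me3. The submitters' processing notes name Trimmomatic, MACS2 version 2.1.0 and the build Sscrofa11.1. Other steps are not given in the sources here. Per the file format, each peak has the authors' score, fold enrichment (a ratio), −log10 p, −log10 q and, in narrow lists, a summit offset; the deposited −log10 q served only to filter peaks and the other values only to describe them. Read depth is unknown.

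Peaks were merged within a library, and the base pairs under them were summed over each protein-coding gene's span extended by 5 kb, from a table of gene positions without strand. Log2 of bp plus 500 was fitted with limma (version 3.58.1 in R 4.3.3, trended and robust variance) per mark, over genes that reached 200 bp in 2 or more of 8 libraries, with 4 groups, 4 residual degrees of freedom and 4 contrasts. P values were adjusted by Benjamini and Hochberg over all genes of a mark and contrast. The pipeline was tested on simulated data. Tables and figures used Python 3.11.15, numpy 2.4.6, pandas 2.3.3 and matplotlib 3.10.9.

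Values in every library are given for every member called in a contrast, those with the largest change first, up to 10 per mark and contrast, and for other members where the text needs them; of the wider list, up to 3 called genes per mark and contrast could be named, and 1 of them is not reported here. The members and lists were chosen with earlier results of these data known. Replicate numbers were not used to pair libraries. Alternatives were 100 bp added, a −log10 q of at least 5, quantile scaling, lists of equal length, the span alone, the gene ends alone, the replicate block, the compared groups alone and each library left out; leaving out other genes' ends was chosen after seeing the data. Promoter windows were not used, since gene starts need the strand.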

Additional observations from a re-analysis of the deposited data

Results flagged for a closer look

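For 14 values the effect of SGC-CBP30 differed between 60 h of differentiation and 0 h by the limma test of that difference itself (CBP against WT at 60 h, less CBP against WT at 0 h). Of all genes tested, 41.5% were called for that difference in H3K4me3, 30.4% in H3K27ac and 56.9% in H3K27me3. With quantile scaling TGFBR3, SMAD1, SMAD6 and SMAD7 were not called in H3K4me3. Nor were BMP6, BMP7 and GREM1 in H3K27me3. In H3K4me3 the difference in log2 was 0.86 for TGFBR3, 0.83 for SMAD1, 0.53 for SMAD6 and 0.46 for SMAD7. In each of those 4 genes CBP cells were lower than WT cells at 0 h and not called at 60 h. It was -1.21 for LTBP2 and -1.91 for CHRD, whose H3K4me3 fell in CBP cells at 60 h and was not called at 0 h. In H3K27ac it was 2.01 for SMAD1, which was lower in CBP cells at 0 h, and 1.73 for SMAD3, which was higher in CBP cells at 60 h. It was -0.92 for ACVR1, -0.83 for CHRD and -0.79 for SMAD4, which were lower in CBP cells at 60 h. CHRD had no base at 0 h in either active mark and passed the filter only through WT cells at 60 h. Its 2 values depend on the 500 bp added. In H3K27ac its value was -0.14 with quantile scaling, and all of that base lay within 1 kb of an end of THPO. The SMAD4 value in H3K27ac, of base at the ends of other genes, was not called with quantile scaling and was lost without 5 of the 8 libraries in turn. In H3K27me3 it was -2.42 for BMP6, -2.18 for BMP7 and -1.62 for GREM1, which were higher in CBP cells at 0 h and not called at 60 h. Relative to the median of all genes, these differences were 0.61, 0.59, 0.28, 0.22, -1.46 and -2.15 in H3K4me3, 2.17, 1.89, -0.76, -0.67 and -0.63 in H3K27ac, and -0.61, -0.37 and 0.19 in H3K27me3, in the order given above.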

How the results depend on the processing

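The counts of called members moved by over 1.5 times as follows. With quantile scaling, H3K4me3 had 4 calls for CBP against WT at 0 h (9 as reported), H3K27ac had 8 at 0 h (5) and 6 at 60 h (10), and H3K27me3 had 1 at 0 h (4), 1 between 60 h and 0 h in WT cells (0) and 0 for the difference between the inhibitor effects (3). Without the 5 kb extension, and likewise with the compared groups alone, H3K4me3 had 5 calls at 0 h. With a −log10 q of at least 5, H3K27ac had 6 calls at 60 h and 8 for the difference (5). Within 5 kb of the gene ends H3K27ac had 3 calls at 60 h, and with the compared groups alone 6. Lists of equal length gave H3K27me3 1 call at 60 h (0) and 1 in WT cells, as did 100 bp added in WT cells. Leaving out 1 library gave 4 to 7, 3 to 7, 11 to 17 and 5 to 9 calls in H3K4me3 (at 0 h, at 60 h, in WT cells and for the difference), 2 to 8, 6 to 9, 11 to 17 and 1 to 7 in H3K27ac, and 2 to 4 at 0 h and 1 to 3 for the difference in H3K27me3.

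Directions turned for these values. With quantile scaling, H3K4me3 gave LTBP1 0.10 at 0 h and -0.033 in WT cells and SMAD6 0.041 at 0 h, H3K27ac gave CHRD 0.0027 and SMAD4 0.056 at 60 h, and H3K27me3 at 0 h gave BMP6 -0.36, BMP7 -0.21, GDF6 -0.39 and GREM1 -1.40, with differences between the effects of 0.080 for BMP6 and 0.52 for GREM1. Within 5 kb of the gene ends, LTBP1 H3K4me3 was 0.090 at 60 h, ACVR1 H3K27ac 0.045 at 60 h and SMAD3 H3K27ac 0.84 in WT cells. Lists of equal length gave TGFBR1 H3K27ac 0.85 at 60 h. The cause was not tested. Of 81 calls, 43 held without each library in turn, 20 under the other alternatives and 18 under all.

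No strong pairing by replicate number was seen: same-numbered libraries of compared groups had correlations of their deviations between -0.0887 and 0.183. With 2 libraries per group these values cannot show whether same-numbered libraries shared a culture or batch, and the labels do not say. With the replicate block, the calls numbered 8, 6, 16 and 9 in H3K4me3, 7, 10, 16 and 7 in H3K27ac and 4, 0, 0 and 2 in H3K27me3, in the same order, and 75 of the 81 were kept. The compared groups alone gave no value for the difference between the effects, and promoter windows were not run. Read depth is unknown, so a short or missing peak is not shown to be an absent mark.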
